A study of Mus musculus with 4 samples.

Results

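The let-7 passenger strands are the 3p arms of the let-7 hairpins, the strands left over when the well-known 5p let-7 strand is taken as guide. They were chosen by name: 7 of the 1029 miRNA names in a table of small RNAs held by the RNA-induced silencing complex (RISC) of mouse brain, namely mmu-let-7a-1-3p with the identical mmu-let-7c-2-3p (1 joined name), mmu-let-7b-3p, mmu-let-7d-3p, mmu-let-7e-3p, mmu-let-7f-1-3p, mmu-let-7f-2-3p and mmu-let-7g-3p. All 7 were present in all 4 libraries, as 245 of the 85704 sequences of the table, and all 7 passed the filter on low values used for the tests (a mean of at least 10 CPM, the reads of a library scaled to a common total). The study asked how the short RNAs of the RISC change between young and old brain. Ago proteins were pulled with a GW182 peptide out of lysates of cortex combined with hippocampus from male C57BL/6J mice with no transgene or treatment, bought at an age of 2 months (2 libraries, called young here) or 18 months (2 libraries, called old). The sources used here do not say whether a library held 1 mouse or a pool, so p-values measure the spread between libraries.

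Each let-7 hairpin is cut by Drosha and then by Dicer into a short duplex. One strand is kept by an Ago protein and guides it to mRNAs through its seed, the bases near its 5′ end, and the other is usually discarded. In the let-7 family the 5p strand is the usual guide. Let-7 is among the most abundant miRNA families of adult brain and is known as a brake on growth and on stem-cell programmes. The 3p strand is also informative about processing, because its 3′ end is the 3′ end of the precursor that Dicer receives. Most let-7 precursors leave Drosha with an overhang that is a base short of the usual one, and terminal uridylyltransferases add a single U to it before Dicer cuts. The let-7e precursor is among the few that have the usual overhang from the start.

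The mature sequences of the members and of let-7i-3p, a family strand used for comparison, are shown from RefSeq (build GRCm38.p6), 5′ to 3′, with bases 2 to 8, the seed, in capitals, because the seeds divide the members into groups.
let-7a-1-3p and let-7c-2-3p: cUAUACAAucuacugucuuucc
let-7b-3p: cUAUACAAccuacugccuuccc
let-7f-1-3p: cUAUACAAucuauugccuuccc
let-7f-2-3p: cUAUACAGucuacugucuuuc
let-7d-3p: cUAUACGAccugcugccuuucu
let-7e-3p: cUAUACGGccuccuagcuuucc
let-7g-3p: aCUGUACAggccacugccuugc
let-7i-3p: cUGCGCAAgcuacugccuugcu

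The first 3 lines share bases 2 to 8, and let-7f-2-3p shares only bases 2 to 7 with them. Let-7d-3p and let-7e-3p also share bases 2 to 7. Let-7f-2-3p differed from let-7a-1-3p at 1 base over their shared length, and let-7b-3p differed from let-7f-1-3p at 2. Such neighbours can be told apart in full-length reads, but a substitution in a read can make its name uncertain.

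The members come from 5 chromosomes. On the minus strand of chromosome 13 lie let-7d-3p (chr13:48536024-48536045), let-7f-1-3p (chr13:48537833-48537854) and let-7a-1-3p (chr13:48538188-48538209), all inside an exon of the long noncoding RNA 6720427I07Rik. On the plus strand of chromosome 15 lie let-7c-2-3p (chr15:85706664-85706685) and let-7b-3p (chr15:85707379-85707400), inside an exon of the noncoding transcript Lncppara. The remaining 3 lie in introns of protein-coding genes read on the same strand. These are let-7e-3p (chr17:17830411-17830432) in Spaca6, let-7f-2-3p (chrX:151912403-151912423) in Huwe1 and let-7g-3p (chr9:106178902-106178923) in Wdr82. The gene annotation was GENCODE M21.

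Let-7i-3p, a family strand that is no member, stood at 664 to 1121 CPM, a range that overlapped with that of let-7d-3p. Among the members, let-7d-3p was by far the most abundant passenger strand. It stood at 1098 and 1047 CPM in the 2-month libraries and at 1006 and 1287 CPM in the 18-month libraries, and it made up 67.4% to 69.3% of the summed CPM of the members in each library. The joined let-7a-1-3p and let-7c-2-3p came next with 138 and 129 CPM in young libraries and 142 and 215 CPM in old libraries. Let-7b-3p stood at 146 and 154 CPM in young libraries and at 112 and 127 CPM in old libraries. These 2 and let-7g-3p formed a middle group whose ranges overlapped, about an order of magnitude under let-7d-3p. Let-7g-3p stood at 104 and 122 CPM in young libraries and at 113 and 131 CPM in old libraries. Let-7e-3p was lower, with 52.5 and 46.1 CPM in young libraries and 39.4 and 51.5 CPM in old libraries, and its range overlapped with no other member. At the bottom, let-7f-1-3p stood at 27.5 and 35.6 CPM in young libraries and at 23.2 and 25.5 CPM in old libraries, and let-7f-2-3p at 17.3 and 19.5 CPM in young libraries and at 20.9 and 29.1 CPM in old libraries. The ranges of both let-7f strands overlapped, so their order is not separated from the spread. The scarcest member, let-7f-2-3p, rested on 181 to 264 reads per library and let-7d-3p on 10642 to 11925.

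**Figure D1:**
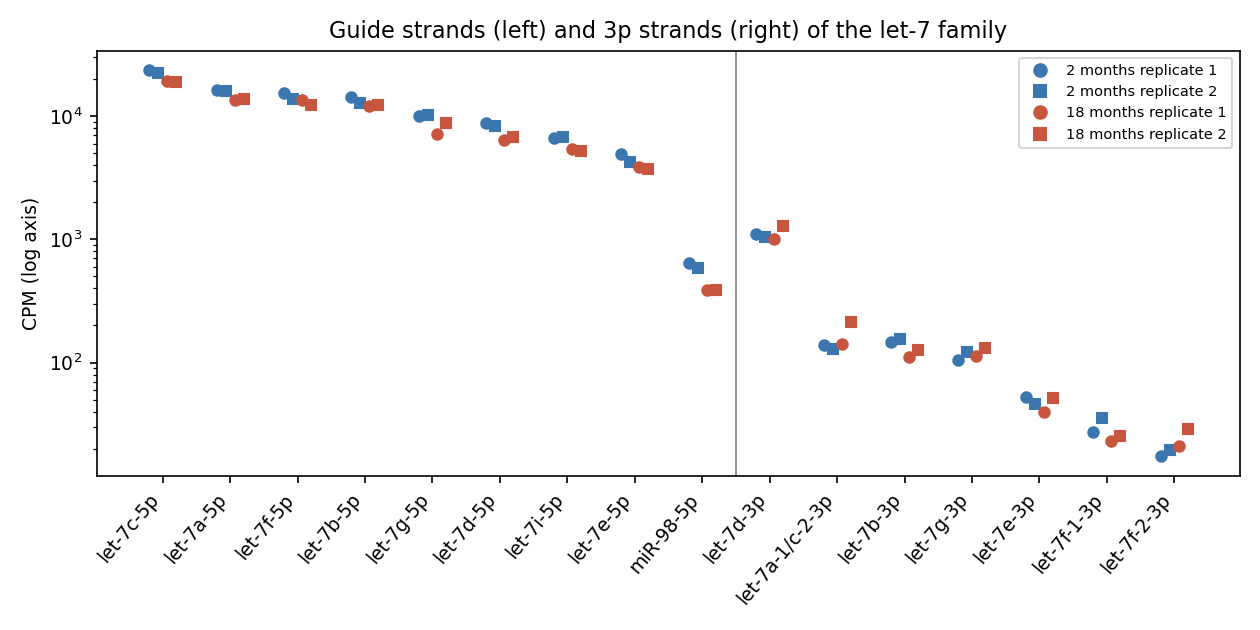
CPM of each let-7 family guide strand (left of the line) and of each 3p member (right of the line) in the 4 libraries, on a log axis, with 2-month libraries in blue, 18-month libraries in red, circles for replicate 1 and squares for replicate 2. Among the 3p members let-7d-3p stands alone near 1000 CPM, between 1006 and 1287, and the let-7f strands lie lowest, between 17.3 and 35.6. Let-7i-3p, which is no member and is not drawn, stood at 664 to 1121 CPM.

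The libraries behind these values held 9067007 to 11388999 reads, in which 3 reads were worth 0.263 to 0.331 CPM. The neuronal markers miR-124-3p, miR-128-3p, miR-9-5p and miR-138-5p summed to 178482 to 208820 CPM. Of 16 marker miRNAs of 7 cell types or tissues, all 16 were detected in all libraries. Their ages did not overlap for 8, beside 53.5% of all tested miRNAs, where 189 of those 244 were lower in old libraries. Of the 8, 7 were lower, including the endothelial miR-126a-3p at 9242 and 8854 CPM against 2557 and 6489 CPM, and muscle miR-133a-3p alone was higher. The liver miRNA miR-122-5p stood at 5.01 to 7.11 CPM, the lowest of the list. The part of these markers in the let-7 values was not tested, and in such bulk tissue fewer cells of a type and less RNA per cell cannot be told apart.

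Beside the guide of the same hairpin, the 3p strand was the minor arm in every case. The share of the 3p arm in both arms of let-7d was 11.0% and 11.1% in young libraries and 13.6% and 15.9% in old libraries. Let-7d-5p, its guide, stood at 8861 and 8401 CPM in young libraries and at 6390 and 6805 CPM in old libraries. The guide was thus 6.86-fold above the passenger, the smallest ratio among the members' hairpins. The passenger share was far smaller elsewhere. For let-7g it was 1.04% and 1.19% in young libraries and 1.55% and 1.46% in old libraries, for let-7e it was 1.01% to 1.38% over the 4 libraries, and for let-7b it was 0.920% to 1.19%. The guides let-7a-5p and let-7c-5p had to be summed, since their passenger strands share a name, and the 3p arms made up 0.360% and 0.354% of that hairpin group in young libraries and 0.453% and 0.666% in old libraries. Let-7f-5p stood 278-fold above both let-7f passenger strands together, whose share was 0.291% to 0.437%. The 95% Wilson intervals of these shares were within 0.265 points of the let-7d values and 0.124 points of the others, and cover counting error only.

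Among the 138 hairpin groups with both arms at a mean of at least 10 CPM, the minor arm made up a median of 10.6% of the 2 arms. The let-7d passenger, at 12.7% by mean CPM, took rank 64 from the highest share and rank 5 by its level. The let-7i passenger, which is no member, was near it with 12.8% and 889 CPM. The other 5 hairpin groups of the members took ranks 116 to 131 of 138 by share, with let-7f, at 0.358%, the lowest of them. These ranks describe 4 libraries and carry no test.

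**Figure D2:**
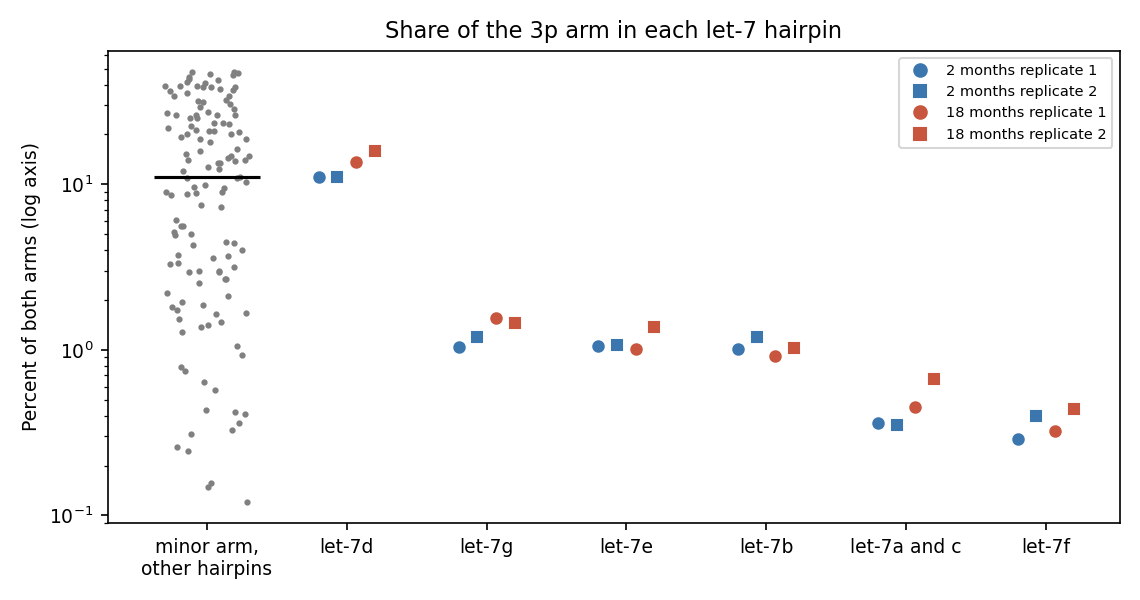
Percent of the CPM of both arms that came from the 3p arm, for each let-7 hairpin group in the 4 libraries (blue for 2 months, red for 18 months), on a log axis, beside the minor arm of the 132 other hairpin groups as grey points, each a mean over the libraries, with their median as a line. Let-7d lies near that median of 11.0% and the other let-7 groups near 1% or below it.

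With age, no passenger strand of the family passed the test. None of the 7 members reached an unadjusted p under 0.05 in limma on log2(CPM + 1), where 74 of 456 miRNAs did (16.2%, of which 19 were higher and 55 lower in old libraries) and 1 miRNA did after adjustment. The scale bears on the sign of small changes, because the log2 change had a median of −0.22 over the 456 miRNAs in CPM and of −0.01 once every library had been scaled to its median of ratios. On the rescaled values 39 of 64 calls were higher in old libraries. The members had a median log2 change of 0.09 in CPM, with 4 above 0 and 3 below, and of 0.30 after rescaling.

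In CPM, the largest changes among the members were those of let-7f-2-3p and the joined let-7a-1-3p and let-7c-2-3p. Let-7f-2-3p averaged 18.4 ± 1.58 CPM in young and 25.0 ± 5.81 CPM in old libraries (each ± SD, n = 2), a log2 change of 0.41 ± 0.29 (SE) with an adjusted p = 0.472 in limma. The joined strand averaged 134 ± 6.64 CPM in young libraries and 178 ± 51.6 CPM in old libraries, a log2 change of 0.39 ± 0.26 with an adjusted p = 0.457. Both were higher in the 2 old libraries than in the 2 young ones, but 1 old library, replicate 2, set most of the distance. For the joined strand the other old library stood at 142 CPM, close to the higher young one at 138 CPM. Without 18 months replicate 1 the joined strand passed at an unadjusted p under 0.05 in limma, and so it did in DESeq2 and in the quasi-likelihood test of edgeR on all 4 libraries, where it was the 1 member called. Without 18 months replicate 2 its log2 change was 0.09. The adjusted p in edgeR was 0.329, and over the alternatives it was 0.318 to 0.875.

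In the other direction, let-7f-1-3p and let-7b-3p were lower in both old libraries than in both young ones. Let-7b-3p averaged 150 ± 5.44 CPM in young libraries and 119 ± 10.2 CPM in old libraries, a log2 change of −0.33 ± 0.21 with an adjusted p = 0.442 in limma. Let-7f-1-3p had a log2 change of −0.35 ± 0.26 with an adjusted p = 0.496. After rescaling these 2 changes shrank to −0.12 and −0.15. The ages did not overlap for 4 of the 7 members, 2 in each direction, beside 53.5% of all tested miRNAs. For let-7d-3p, let-7g-3p and let-7e-3p the ages overlapped, with log2 changes of 0.09 ± 0.22, 0.11 ± 0.22 and −0.12 ± 0.25. The sign of let-7e-3p turned to 0.08 after rescaling, and the signs of let-7d-3p and let-7g-3p turned when 1 library was left out.

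On the CPM scale the guides of the family were lower in old libraries. All 9 family guides, let-7a-5p to let-7i-5p and miR-98-5p, had log2 changes below 0 with a median of −0.27. The ages did not overlap for any of the 9. Of all 456 tested miRNAs, 312 had log2 changes below 0, with a median of −0.22 over all, and 189 were lower without overlap of the ages. Among the guides, only miR-98-5p passed at an unadjusted p under 0.05 in limma (log2 change −0.67 ± 0.20, adjusted p = 0.229). It stood at 643 and 584 CPM in young libraries and at 385 CPM in both old libraries. Among the guides of the members, let-7d-5p had the largest change, −0.39 ± 0.20 with an adjusted p = 0.384. After rescaling the median of the guides was −0.06, near the median of all miRNAs.

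**Figure D3:**
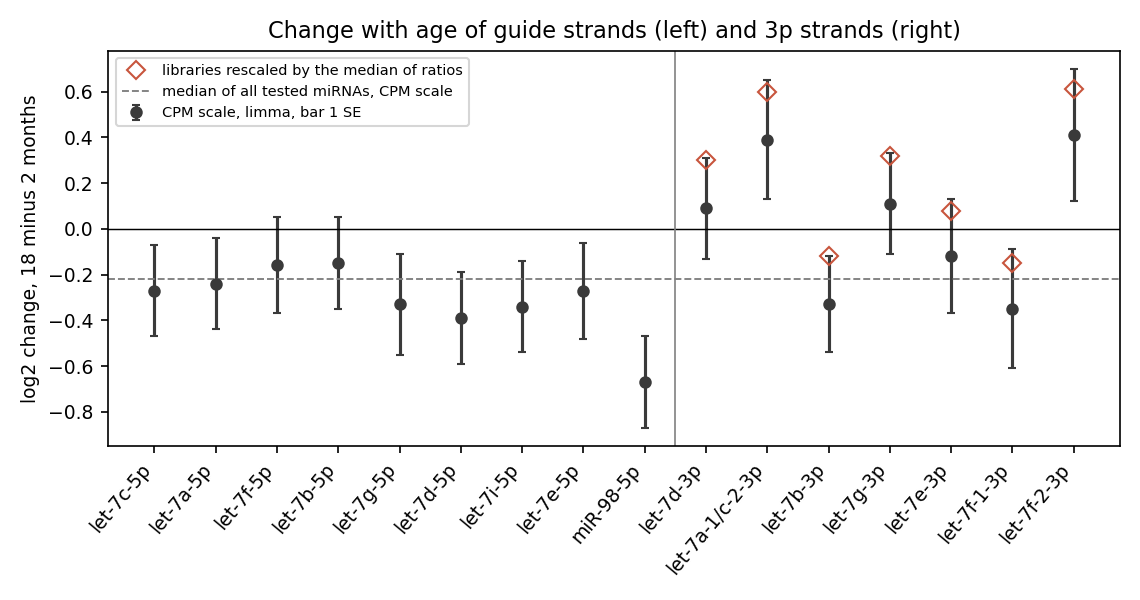
Log2 change of the level from 2 to 18 months for the 9 guides (left) and the 7 passenger strands (right), as circles with 1 SE from limma on the CPM scale, with open diamonds for the passenger strands after rescaling and a dashed line at the median of all tested miRNAs, −0.22. The guides lie at −0.15 or lower, and the passenger strands spread from −0.35 to 0.41.

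The balance of the arms was compared directly, as the log2 ratio of the 3p to the 5p arm within a library, which, the pseudocount aside, is not affected by the scale of the library. For let-7d this ratio was −3.01 and −3.0 in young libraries and −2.67 and −2.40 in old libraries, so both old libraries were above both young ones. The change of 0.47 ± 0.26 (SE) had an adjusted p = 0.819 in limma, with 0.554 to 0.978 over the alternatives. For let-7g the ratio went from −6.56 and −6.37 to −5.97 and −6.07, a change of 0.44 ± 0.25 with the same adjusted p. For the let-7a and let-7c group it went from −8.10 and −8.12 to −7.77 and −7.21, a change of 0.62 ± 0.30, again with the same adjusted p. This change passed at an unadjusted p under 0.05 only when 18 months replicate 1 was left out, and it was 0.34 without 18 months replicate 2. Let-7e and let-7f both changed by 0.15 and let-7b by −0.18, with ages that overlapped.

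None of the 6 hairpin groups passed at an unadjusted p under 0.05, beside 2.17% of the 138 groups (3, all with a higher ratio in old libraries), and none of the 138 passed after adjustment. In 5 of the 6 the ratio was higher in old libraries and their median change was 0.30, while it was higher in 82 of the 138 groups and the median change of all was 0.12. The ages did not overlap for 3 of the 6, all 3 higher in old libraries, beside 35.5% of all groups. With 2 libraries on each side, the smallest p of an exact permutation test is 0.333.

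The other 3p arms of the family, which are no members, were described beside them. Let-7i-3p stood at 673 and 1121 CPM in young libraries and at 664 and 1096 CPM in old libraries, so libraries of the same age differed more than the ages did. MiR-98-3p stood at 17.2 to 33.9 CPM with overlapping ages, and let-7a-2-3p and let-7c-1-3p, at 2.54 to 4.73 and 2.27 to 3.86 CPM, were under the filter. MiR-99, miR-100 and miR-125 are families whose genes neighbour let-7 genes. Of 11 strands of these, 1 passed at an unadjusted p under 0.05 in limma, beside 16.2% of all tested miRNAs. It was miR-99b-5p, lower in old libraries (log2 change −0.94 ± 0.26, adjusted p = 0.229). The hairpin of miR-99b-5p lies with those of let-7e and miR-125a. The median change of the 11 was −0.23, close to that of all miRNAs.

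The single sequences behind each name show where the strands begin and end. The most abundant read of each member is given as it stands in the deposited table, with T for U and with untemplated bases, those that the hairpin does not carry at the 3′ end, in capitals.
let-7a-1-3p and let-7c-2-3p: ctatacaatctactgtctttcT
let-7b-3p: ctatacaacctactgccttccT
let-7f-1-3p: ctatacaatctattgccttccT
let-7f-2-3p: ctatacagtctactgtctttcT
let-7g-3p: ctgtacaggccactgccttgcT
let-7e-3p: ctatacggcctcctagctttcc
let-7d-3p: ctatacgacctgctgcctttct

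In 5 of the 7 members the most abundant read thus ended with a U that is not in the hairpin. The hairpins of let-7b, where this was common, of let-7e, where it was rare, and of let-7d, where it could not be read, are shown from RefSeq with both mature arms in capitals.
Mirlet7b: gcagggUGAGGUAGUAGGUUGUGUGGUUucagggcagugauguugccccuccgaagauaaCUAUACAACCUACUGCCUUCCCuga
Mirlet7e: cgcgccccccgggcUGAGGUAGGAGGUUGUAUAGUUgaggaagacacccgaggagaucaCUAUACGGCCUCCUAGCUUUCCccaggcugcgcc
Mirlet7d: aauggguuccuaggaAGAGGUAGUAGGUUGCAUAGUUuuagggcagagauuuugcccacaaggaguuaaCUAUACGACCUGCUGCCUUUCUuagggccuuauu

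A read counts here as carrying 1 added U where a single U follows its longest match to the hairpin. This can be read only where the hairpin itself does not go on with U after the commonest templated end. The let-7d hairpin goes on with U at that place, so an added U of let-7d-3p cannot be told from the template, and its 0.365% is no measure of it.

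The share with 1 added U was highest for let-7f-2-3p, with 77.9% and 84.7% of its CPM in young libraries and 86.0% and 72.3% in old libraries. In let-7b-3p it was 77.2% and 79.8% in young libraries and 73.4% and 70.5% in old libraries. Let-7f-1-3p followed with 68.1% and 68.5% in young libraries and 55.1% and 52.8% in old libraries. In let-7f-2-3p, let-7b-3p and let-7f-1-3p most reads carried the added U in every library. The joined let-7a-1-3p and let-7c-2-3p had 39.5% and 46.4% in young libraries and 50.7% and 49.2% in old libraries, and let-7g-3p had 44.2% and 27.4% in young libraries and 34.6% and 49.3% in old libraries. Templated ends made up 44.4% to 55.6% of the joined strand and 44.7% to 64.9% of let-7g-3p. Let-7e-3p stood apart with 9.27% to 10.8% over the 4 libraries, below the range of each of the other 5. Its commonest read, at 20.8 to 29.5 CPM, ended on the hairpin.

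**Figure D4:**
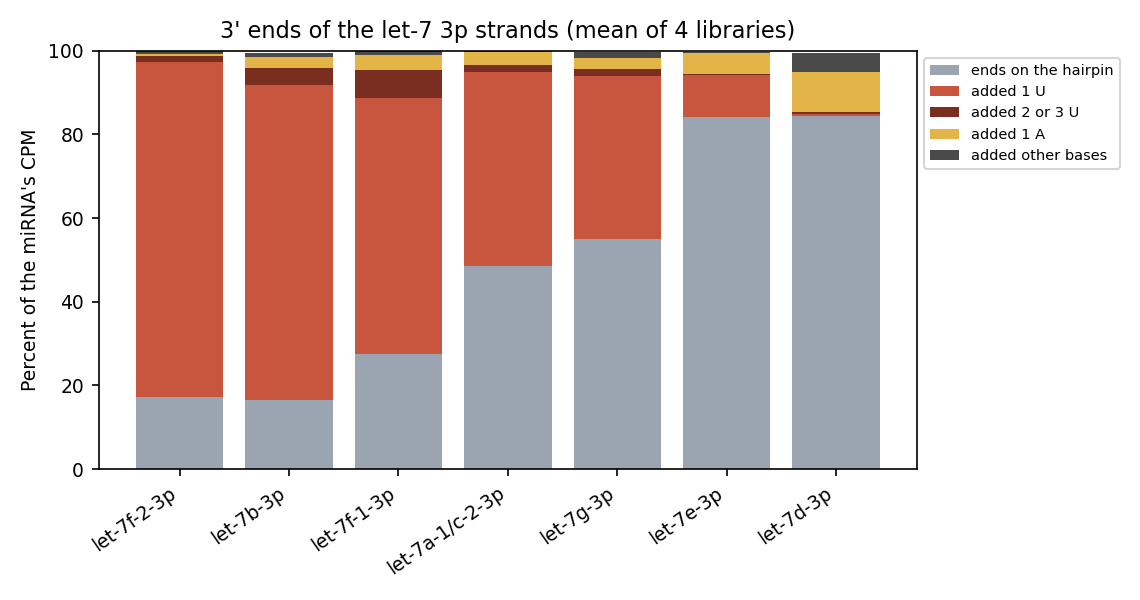
Composition of the 3′ ends of each member as percent of its CPM, averaged over the 4 libraries, with grey for ends that lie on the hairpin, light red for 1 added U, dark red for 2 or 3 added U, yellow for 1 added A and black for other bases. Added U makes up most of let-7f-2-3p, let-7b-3p and let-7f-1-3p, at 80.2%, 75.2% and 61.1%, and little of let-7e-3p, at 10.1%. In let-7d-3p an added U cannot be read.

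Other additions were less common. Tails of 2 or 3 U made up 6.79% of let-7f-1-3p, 4.06% of let-7b-3p, and under 2% of the joined strand, let-7f-2-3p and let-7g-3p. A single added A was found on 9.57% of let-7d-3p, more than on let-7e-3p (4.99%), let-7f-1-3p (3.55%) and the other members. In let-7d-3p it was higher in both old libraries, at 11.2% and 11.0% against 8.85% and 7.15%. The same held for let-7b-3p, at 3.37% and 3.92% against 2.41% and 1.54%. It also held for the joined strand, at 3.66% and 3.49% against 2.62% and 2.93%, and for let-7i-3p, which is no member. In the other members the ages overlapped, and how often this occurs over all 3p arms was not determined. This is a description, since 2 libraries against 2 cannot be separated by an exact test. Per library, the 95% Wilson intervals of the end shares of let-7d-3p were within 0.7 points and those of the other members within 6.4 points.

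Beside the other 3p arms of the table, 5 of the members ranked high for an added U. It could be read on 141 of 194 3p arms with a mean of at least 10 CPM, 6 of them members. The median share of the 135 others was 6.53%, with quartiles of 3.17% and 14.1%, and only 4 of them lay above 50%. By mean share let-7f-2-3p took rank 2, let-7b-3p rank 3, let-7f-1-3p rank 6, the joined strand rank 8 and let-7g-3p rank 12 of 141, while let-7e-3p, at 10.1%, lay between the quartiles of the others. The highest share was that of miR-1224-3p (80.8%), and miR-652-3p, at 62.4%, was the most abundant of the high ones with a mean of 1593 CPM. Let-7i-3p, of the same family, had 4.71%, but its commonest read, of 21 bases, stopped where the hairpin goes on with U. A U added to that form cannot be told from the template, so 4.71% can understate it. On 121 readable 5p arms, which do not carry the 3′ end of the precursor, the median was 2.74%.

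**Figure D5:**
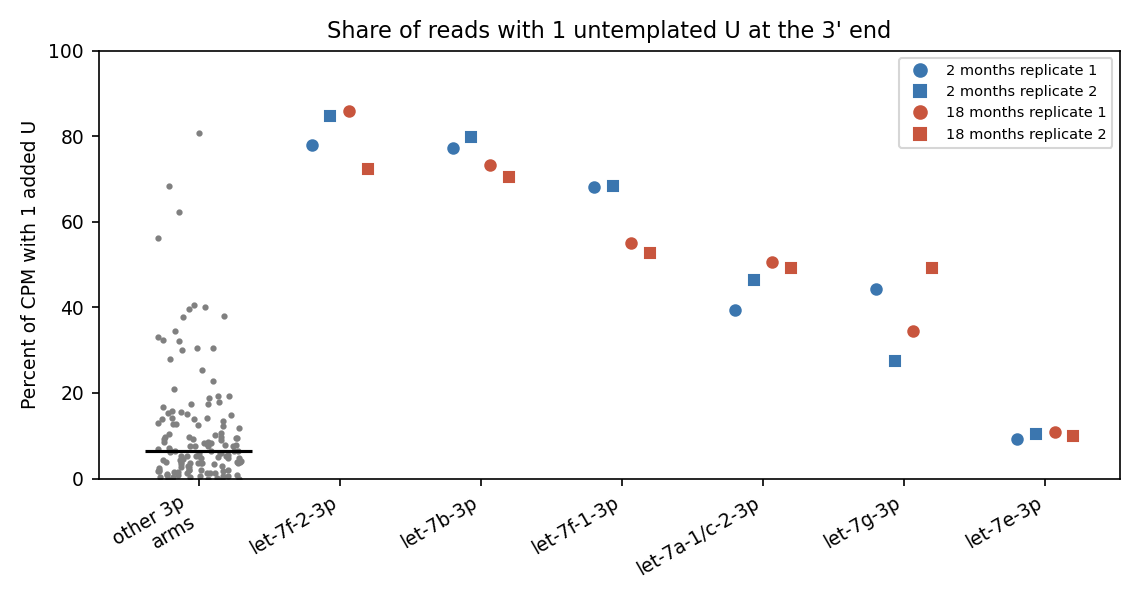
Percent of the CPM with 1 untemplated U at the 3′ end for the 6 members on which it can be read, in each library (blue for 2 months, red for 18 months, circles for replicate 1, squares for replicate 2), beside the mean of each of the 135 other 3p arms as grey points with their median of 6.53% as a line. For let-7f-1-3p both old libraries, at 55.1% and 52.8%, lie below both young ones, at 68.1% and 68.5%.

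Between the ages the share with 1 added U did not move in 1 direction. In let-7f-1-3p it was lower in both old libraries, where the mean fell by 14.3 points, and in let-7b-3p the mean fell by 6.56 points. In the joined let-7a-1-3p and let-7c-2-3p it was higher in both old libraries, by 6.98 points (3.54 points without 2 months replicate 1 and 10.4 points without 2 months replicate 2). For let-7f-2-3p, let-7g-3p and let-7e-3p the ages overlapped. Ages without overlap were thus found for 3 of 6 members, beside 31.9% of the 141 readable 3p arms.

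Tested one by one, the sequences of the members changed little. Of the 62 member sequences that averaged 1 CPM or more, 1 passed at an unadjusted p under 0.05, beside 10.1% of the 14287 sequences tested, and none after adjustment. It was the uridylated and commonest let-7f-1-3p read, at 18.0 and 23.2 CPM in young libraries and 12.0 CPM in both old libraries (log2 change −0.72 ± 0.32, adjusted p = 0.492). It did not pass in edgeR or DESeq2, nor in limma without 2 months replicate 2, without 18 months replicate 1 or without 18 months replicate 2. The same strand without the added U stood at 3.72 and 4.21 CPM in young libraries and at 4.35 and 4.30 CPM in old libraries. The commonest let-7b-3p read, also uridylated, stood at 109 and 119 CPM in young libraries and at 77.6 and 84.6 CPM in old libraries, with an adjusted p = 0.599, while its form without U went from 16.2 and 16.5 CPM to 18.8 and 19.9 CPM. In let-7a-1-3p and let-7c-2-3p the uridylated read was instead higher, at 68.7 and 104 CPM in old against 52.6 and 58.1 CPM in young libraries, with an adjusted p = 0.564.

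The 5′ end sets the seed, and it was precise for most members. The share of CPM that began at the RefSeq start was 97.5% for let-7f-2-3p, 97.1% for let-7b-3p, 97.0% for the joined strand, 92.7% for let-7d-3p, 88.5% for let-7e-3p and 86.1% for let-7f-1-3p. Let-7g-3p was the exception. Only 8.04% and 16.4% of it in young libraries and 11.4% and 5.80% in old libraries began at the RefSeq start, and 82.3% to 90.8% began 1 base downstream. Of 194 3p arms, 171 had their commonest start at the RefSeq start and 12 had it 1 base downstream. The let-7g strand as it was found in the RISC therefore begins with C, like the other members, and its seed at bases 2 to 7 is UGUACA instead of CUGUAC.

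In let-7f-1-3p a second start was seen. Reads that began 2 bases upstream, within the hairpin, made up 2.43% and 6.90% in young libraries and 11.0% and 12.6% in old libraries. The share at the RefSeq start was lower in both old libraries, at 84.5% and 80.5% against 91.7% and 87.7%. The most abundant such read stood at 0.668 and 1.41 CPM in young libraries and at 2.17 and 1.76 CPM in old libraries, so it rests on few reads (log2 change 0.56 ± 0.36, adjusted p = 0.631). It is shown because its seed, ACUAUA, differs from that of the RefSeq strand, and all of its bases are on the hairpin.
let-7f-1-3p from 2 bases upstream: aactatacaatctattgccttc

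Ages without overlap in the share at the RefSeq start were found for 2 of the 7 members, let-7f-1-3p and let-7b-3p, beside 31.4% of the 194 3p arms. In let-7b-3p the shift was small, from 97.5% and 97.4% to 97.1% and 96.5%. The length was most often 22 nucleotides in all 7 members.

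The study ranks a seed by its 6mer seed viability, averaged over 3 mouse cell lines that received a duplex with the seed at positions 2 to 7, in percent of a control. A low value marks a toxic seed. The seeds of the passenger strands lay above that of the guides, GAGGUA, at 50.3. UAUACG, the seed of let-7d-3p and let-7e-3p, had a viability of 83.2 and made up 65.1% to 67.3% of the members' CPM. UAUACA, the seed of let-7a-1-3p, let-7c-2-3p, let-7b-3p, let-7f-1-3p and let-7f-2-3p, had 80.7 and made up 19.6% to 21.0%. The let-7g-3p seed UGUACA had 61.6, the lowest of the main seeds of the members, and the seed at the RefSeq start, CUGUAC, had 67.5. These viabilities are properties of the seeds and were not measured in these mice.

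Reads with a shifted start carried other seeds, some of higher and some of lower viability. AUACGA, on let-7d-3p reads that began 1 base downstream, had 89.0 and made up 4.16% to 4.62% of the members' CPM, and AUACAA, on shifted reads of the UAUACA strands, had 94.3. UACGAC, on let-7d-3p reads from 2 bases downstream, had 77.2. Weighted by CPM, the viability over all members was 81.5 and 81.3 in young libraries and 81.4 and 81.5 in old libraries. For the 5p arms of the same hairpins it was 50.3 to 50.4, and for the whole table it was 57.7 to 58.4. Of all CPM in the table with the seed UAUACG, 99.0% came from the members, and of those with UAUACA 78.4%.

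Together the members made up 1584 and 1553 CPM in young libraries and 1457 and 1865 CPM in old libraries, beside 93379 and 87731 CPM in young libraries and 75846 and 76860 CPM in old libraries for the 5p arms of their hairpins. Their share in the sum of both was 1.67% and 1.74% in young libraries and 1.89% and 2.37% in old libraries. Both old libraries were above both young ones, and since the members were summed after selection by name, no p is given for this share.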

How the data were processed

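Age and replicate of each library were read from its labels, and no per-sample column was left without a sample (0 unmatched). The authors de-multiplexed the reads, trimmed them with Trim Galore, cleaned them, removed rare reads, named the rest by BLAST against mouse small RNAs and deposited CPM per sequence and library, scaled to the same total. Versions are not given in the sources used here. The deposited seed viability is a score added by the authors from a screen. Loss of rare reads limits scarce isoforms, and ligation can favour some ends.

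Rows were summed by miRNA name, and 100% of nonzero CPM values were whole multiples of 1 read (tolerance 0.00544 to 0.00683 reads). Limma with a trend was fitted across all features to log2(CPM + 1) with age as the covariate and two-sided p-values: miRNAs and both arms of a hairpin at a mean of 10 CPM or more, sequences at 1 CPM or more. Fold changes of low strands are understated by the pseudocount. Calls used an unadjusted p under 0.05, as in the study's methods, and Benjamini-Hochberg adjusted p. A 3′ tail was what followed the longest match to the RefSeq hairpin, at most 3 bases. The let-7f 3p strands were summed against let-7f-5p, and let-7a-2-3p and let-7c-1-3p entered the let-7a and let-7c group. Tested on simulated data with dispersions like those of the libraries, the fit recovered 100% of 4-fold changes among 456 miRNAs and 87% (36.5% after adjustment) among 14287 sequences. Changes as small as those of the members were not simulated, so how often the fit would find them is not known.

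Members and lists were chosen with earlier results of these data known: family guides, other 3p arms, miR-99, miR-100 and miR-125 strands, minor arms, the 5 miRNAs with the most similar pattern, and cell type markers. Alternatives were other pseudocounts, filters and scaling, the replicate block, no trend, adjusted p, the most abundant 6mer seed only, length limits, edgeR, DESeq2 and leaving out each library. Other experiments of the study were not analysed here. R 4.3.3, limma 3.58.1, edgeR 4.0.16, DESeq2 1.42.0, Python 3.11.15, pandas 2.3.3, scipy 1.17.1 and matplotlib 3.10.9 were used.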

Additional observations from a re-analysis of the deposited data

Results flagged for a closer look

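Reads of the let-7 hairpins that lie on the 3p arm but carry no miRNA name in the deposited table were outside every comparison above, and were looked at after the other results were known. They stood at 28.6 and 32.8 CPM in young libraries and at 29.1 and 43.7 CPM in old libraries, from 111 sequences, far above the limit that 3 reads allow (0.263 to 0.331 CPM). Most belonged to let-7d, with 17.5 and 17.2 CPM in young libraries and 17.2 and 24.8 CPM in old libraries, and to let-7i.

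Within them a single substitution led. Counted from 1 at the 5′ end of the mature strand and over bases 1 to 18 of reads that began there, A5G was carried by 0.872% and 0.827% of let-7d-3p reads in young libraries and by 0.740% and 0.954% in old libraries, on 74 to 105 reads per library. The next most common of the 52 substitutions that could be assigned to let-7d-3p alone, U18C, averaged 0.182%. The ages overlapped, and every 95% Wilson interval lay between 0.590% and 1.15%. A5G changes the 6mer seed from UAUACG, with a viability of 83.2, to UAUGCG, with 66.5. None of these reads had a miRNA name, although the deposited table classes the form of 21 bases as miRNA. That form was in none of 141767 GENCODE M21 transcripts. An A-to-G change is how inosine, made from adenosine by ADAR enzymes, appears in reads, and whether it was that here was not tested.

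For let-7b-3p the leading substitution was A8G, in 2.97% and 1.04% in young libraries and 3.26% and 2.53% in old libraries, on 18 to 46 reads, while the next averaged 0.127%. The deposited table names its 2 sequences as an mRNA, although no transcript of the annotation matched exactly.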

How the results depend on the processing

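Member levels: 0 of the 7 members were called, and 1, the joined let-7a-1-3p and let-7c-2-3p, was called in edgeR (log2 change 0.64), in DESeq2 (0.63) and without 18 months replicate 1 (0.68), so that leaving out a library gave 0 to 1 calls. The sign turned for let-7e-3p after rescaling (0.08), in edgeR (0.10), in DESeq2 (0.09) and without 18 months replicate 1 (0.07), for let-7d-3p without 18 months replicate 2 (−0.09) and for let-7g-3p without 2 months replicate 1 (0). Over the 4 fits that left out a library, the change was −0.31 to 0.07 for let-7e-3p, −0.09 to 0.26 for let-7d-3p and 0 to 0.22 for let-7g-3p. Over all miRNAs the calls ranged from 43 to 125, and their higher share was 25.7% in CPM and 62.9% in edgeR. DESeq2 called 19 miRNAs after adjustment, edgeR 0 (62 unadjusted). Arm ratios: leaving out a library gave 0 to 1 calls, let-7a and let-7c without 18 months replicate 1 (0.90), and turned let-7e without 18 months replicate 2 (−0.07) and let-7f without 2 months replicate 1 or 18 months replicate 2 (−0.07 each), both with a range of −0.07 to 0.37. Over all hairpins 1 to 10 were called. Member sequences: 1 call became 0 with a pseudocount of 0.1 CPM, the replicate block, no trend, rescaling, edgeR, DESeq2 or adjusted p, and 1 to 3 without 1 library. End shares: 5 of 13 comparisons had ages without overlap, and 7 to 10 did without 1 library, where 1 value stands against 2. The causes were not tested.

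Replicate numbers: deviations of same-numbered libraries correlated at 0.18 over 456 miRNAs, with 2 pairs only, so the numbers are taken as names. The block moved the calls over all miRNAs from 74 to 79 and, beyond the member sequence above, changed no member's call. Of 88 level changes under the alternatives, 79 had the same sign and side of the threshold. Depth limits the end shares of the members to within 6.4 points in a library.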

Other observations

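By root mean square distance of centred log2(CPM + 1) over the 4 libraries, the summed members were most like miR-3068-5p (distance 0.055), which stood at 209 and 187 CPM at 2 months and at 180 and 224 CPM at 18 months. MiR-194-5p (0.079), miR-551b-3p (0.086), miR-7a-1-3p (0.089) and miR-384-3p (0.091) followed, among 269 other miRNAs with a mean of at least 100 CPM. With 4 libraries this measure follows mainly the higher value in 18 months replicate 2, and it is given as a description.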
